A study of Mus musculus with 9 samples.

Results

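Acute phase and innate defence proteins are secreted factors of early inflammation and the transcription factors that switch their genes on. The set held 8 genes (Saa3, Hp, Lcn2, Ptx3, C3, Serpina3n, Cebpb and Cebpd) of the 18193 genes measured with at least 1 probe set of their own. Of the 8, 7 had such a probe set, 10 probe sets in all, and complement C3 was not analysed here. The genes were chosen by their levels on these same arrays, so their differences between groups are given as a description with no test. Expression was measured in CBA/CaJ mice, adults of 8 to 12 weeks and of both sexes, none of which had received a treatment of the ear. The arrays, Affymetrix 3' expression arrays with 1 sample each, numbered 3 for auditory nerve tissue as dissected, 3 for cells cultured from the nerve and 3 for neurospheres. The cells came from nerve dissociated with trypsin and DNase I and grew attached to ornithine and fibronectin until confluent, for 5 to 7 days in medium with 10% serum and B27. For the neurospheres, which are clusters of dividing cells, that medium was replaced by a serum-free one with EGF at 20 ng/ml, FGF at 10 ng/ml and heparin at 2 µg/ml for 12 more days. No label states whether samples of 1 group are of different animals or culture dishes, so every spread and p given here is that between these samples and may be technical.

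In the acute phase response, cytokines such as interleukin 6, interleukin 1 and tumour necrosis factor reach liver cells and, in injured tissue, local fibroblasts, endothelium and glia. Their signals arrive in the nucleus through STAT3, NF-kB and the C/EBP factors, which switch on secreted proteins that bind iron, haemoglobin, lipids, proteases and microbial surfaces. In injured brain, Lcn2 and Serpina3n are widely used as markers of reactive astrocytes.

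The stretches upstream of the genes are shown because the set holds 2 C/EBP factors beside their potential targets. RefSeq promoter sequences (build GRCm38.p6, the 250 bases before an annotated start) were found for 5 of the 7 genes, and Hp and Cebpd had none in the table used. Both strands were searched for TTGCNNAA (C/EBP), TTCNNNGAA (STAT) and the NF-kB motif, a run of 3 G and an A followed by any 4 bases and 2 C, and capitals mark the matches. Saa3 (chr7:46715757-46715786, minus strand) had a C/EBP match at bases -99 to -92, and 30 bases around it are shown, since the whole window lies inside the annotated span of the gene. Lcn2 (chr2:32387740-32387989, minus strand) had 1 at -216 to -209 and Ptx3 (chr3:66219637-66219886, plus strand) 1 at -57 to -50. The motif reads in the direction of the gene for Lcn2 and against it for Ptx3 and Saa3.
Saa3: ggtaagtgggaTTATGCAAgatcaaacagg
Lcn2: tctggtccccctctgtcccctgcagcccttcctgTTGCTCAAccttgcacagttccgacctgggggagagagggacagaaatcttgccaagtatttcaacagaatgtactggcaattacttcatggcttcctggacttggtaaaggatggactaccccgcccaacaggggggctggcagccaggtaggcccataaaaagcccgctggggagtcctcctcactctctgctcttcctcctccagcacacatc
Ptx3: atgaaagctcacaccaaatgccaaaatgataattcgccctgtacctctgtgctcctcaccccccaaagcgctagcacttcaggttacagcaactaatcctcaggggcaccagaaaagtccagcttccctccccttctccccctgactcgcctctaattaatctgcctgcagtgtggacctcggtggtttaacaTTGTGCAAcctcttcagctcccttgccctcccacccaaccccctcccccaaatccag

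Serpina3n (chr12:104406458-104406645, plus strand) had NF-kB matches at bases -170 to -161 and -43 to -34. The second of these lies within the annotated span of the gene and is not shown. Cebpb (chr2:167688665-167688914, plus strand) had 1 NF-kB match at -23 to -14. No window of the 5 matched the STAT letters.
Serpina3n: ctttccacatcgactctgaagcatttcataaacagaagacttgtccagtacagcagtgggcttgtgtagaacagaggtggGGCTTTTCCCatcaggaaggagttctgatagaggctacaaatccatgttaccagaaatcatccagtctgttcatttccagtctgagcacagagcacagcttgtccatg
Cebpb: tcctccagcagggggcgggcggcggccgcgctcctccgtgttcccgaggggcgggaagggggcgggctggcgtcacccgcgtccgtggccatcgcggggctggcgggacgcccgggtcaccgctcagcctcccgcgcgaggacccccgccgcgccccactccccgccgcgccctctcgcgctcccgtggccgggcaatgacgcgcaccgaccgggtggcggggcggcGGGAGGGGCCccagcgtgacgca

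A C/EBP match was thus found for Saa3, Lcn2 and Ptx3 and for neither of the other genes, and an NF-kB match for Serpina3n and Cebpb alone. Of the 27025 promoters in the table, 9.55% held the C/EBP letters, 17.3% the NF-kB letters and 7.18% the STAT letters. A match of letters is no evidence of binding, and binding was not measured.

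**Figure D1:**
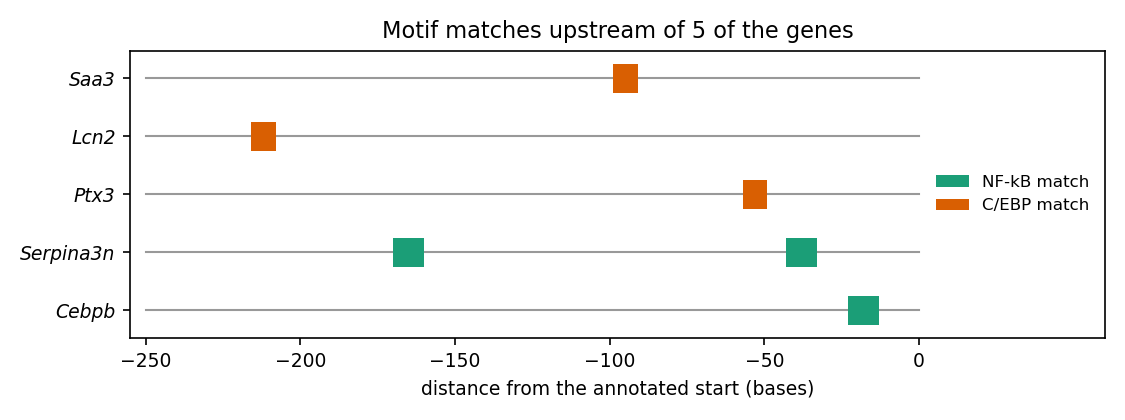
Matches of 2 motifs (coloured blocks) in the 250 bases upstream of the annotated start of 5 genes, with the distance from the start in bases on the x axis and 1 gene per line. C/EBP matches lie upstream of Saa3, Lcn2 and Ptx3, and NF-kB matches upstream of Serpina3n and Cebpb.

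Each of the 7 genes analysed was higher in neurospheres than in tissue by its brightest probe set, an order that a dimmer probe set of Ptx3 did not share, and all but Serpina3n were higher in cultured cells than in tissue. Relative to cultured cells, neurospheres had more Saa3, Hp, Lcn2 and Serpina3n, slightly more Cebpb, much less Ptx3 and nearly the same Cebpd. All values below are log2 RMA signals of 1 probe set per gene, and a difference of 1 is a doubling. The level of 1 gene cannot be set against that of another on these arrays. As a background level, the 95th percentile of 78 probe sets for olfactory and vomeronasal receptors lay at 5.35 to 5.69 on the 9 arrays.

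Counted over the set, 7 of 7 genes were higher in neurospheres than in tissue with no overlap between arrays and over 1.5-fold, as were 21.7% of all genes. Their median difference was 4.06, against 0.047 for all genes. In cultured cells against tissue the count was 6 of 7 (20.3% of all genes), with a median of 2.97 against -0.0091. In neurospheres against cultured cells it was 5 of 7 (9.14% of all genes), with Ptx3 lower and a median of 1.84 against 0.051. Because the genes were chosen by these levels, the counts describe the choice, and the 3 comparisons share arrays. In the fit over all genes (limma, adjusted p under 0.05 and over 1.5-fold), 21.7% of genes were higher and 21.0% lower in neurospheres than in tissue. In cultured cells against tissue 20.4% were higher and 22.0% lower, and in neurospheres against cultured cells 9.0% and 8.91%. With arrays centred on hybridisation controls, genes that were higher made up 59.9% of those passing in cultured cells against tissue, in place of 48.0%, and 35.0% in neurospheres against cultured cells, in place of 50.3%.

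Saa3 encodes serum amyloid A3, an apolipoprotein of the acute phase that mice make mostly outside the liver. Its signal was 7.06, 5.80 and 5.09 on tissue arrays 1 to 3, where the lowest value was under the background level of its array. It was 8.79, 9.28 and 8.83 in cultured cells. It was 12.43, 12.51 and 12.50 in neurospheres, and the lowest neurosphere array exceeded the highest cultured cell array by 3.14. The 3 groups formed 3 separate steps, with the closest agreement between arrays in the neurospheres (SD 0.045) and the widest spread in tissue (SD 1.0). The mean difference from tissue was 6.49 (SE 0.58) in neurospheres, a 90.1-fold difference, and 2.99 (SE 0.60) in cultured cells, a 7.92-fold difference. Between neurospheres and cultured cells it was 3.51 (SE 0.16), or 11.4-fold.

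Hp encodes haptoglobin, which binds free haemoglobin in plasma. Its signal was 4.85, 4.72 and 5.51 in tissue, and the array at 5.51 was the only one of the 3 above the background level. It was 8.66, 8.45 and 8.58 in cultured cells. It was 11.47, 12.23 and 12.04 in neurospheres, where array 1 lay lowest. Hp thus lay at about the background level in tissue and was higher by steps of similar size, 3.54 (SE 0.25) from tissue to cultured cells and 3.35 (SE 0.24) from these to neurospheres. Its difference of 6.89 (SE 0.33) between neurospheres and tissue was 118.3-fold as computed from the signals. With 2 of the 3 tissue arrays under the background level, the size of this fold is uncertain. So is that of the step from tissue to cultured cells, and with it the likeness of the 2 steps.

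Lcn2 encodes lipocalin 2, which withholds iron from bacteria by binding their siderophores. Its signal was 7.82, 6.57 and 8.11 in tissue, above the background level on each array. It was 10.61, 10.61 and 10.18 in cultured cells and 13.61, 13.32 and 13.14 in neurospheres. As computed from the signals, the steps resembled those of Saa3 and Hp, at 2.97 (SE 0.49) from tissue to cultured cells and 2.89 (SE 0.20) on to neurospheres. In all, neurospheres exceeded tissue by 5.86 (SE 0.49), or 58.1-fold.

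Ptx3 encodes the long pentraxin 3, a secreted pattern recognition protein that binds complement C1q and takes part in hyaluronan-rich matrix. Unlike the other genes it was highest in cultured cells. Its signal was 6.58, 6.18 and 6.42 in tissue, 13.59, 13.69 and 13.75 in the cultured cells and 9.79, 10.53 and 11.05 in neurospheres. Cultured cells exceeded tissue by 7.28 (SE 0.13), 155.4-fold, which was the largest difference of the set by the brightest probe sets. Neurospheres were 3.22 (SE 0.37) below cultured cells, at 0.107 times their level, and still 4.06 (SE 0.38) above tissue. The neurosphere arrays spanned 2.40-fold, and even the highest lay 2.55 below the lowest cultured cell array.

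Serpina3n encodes a serine protease inhibitor of the antichymotrypsin family. It had low signals throughout, at 6.08, 5.59 and 5.96 in tissue and 5.31, 5.17 and 5.52 in cultured cells, where 1 of the 3 arrays was above the background level. In neurospheres it was 7.24, 7.27 and 7.00. Neurospheres exceeded tissue by 1.30 (SE 0.17) and cultured cells by 1.84 (SE 0.13), 2.46-fold and 3.57-fold as computed from the signals, the latter against a group with 2 of 3 arrays under the background level. Tissue and cultured cells differed by -0.54 (SE 0.18), and their nearest arrays lay only 0.071 apart, so these neighbours in the order are barely separated.

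Cebpb and Cebpd encode C/EBP beta and C/EBP delta, leucine zipper factors that bind the promoters of many acute phase genes. Cebpb was at 9.47, 9.63 and 9.64 in tissue, 12.01, 12.07 and 12.10 in the cultured cells and 12.87, 12.69 and 12.74 in neurospheres. Its main step was that from tissue to culture, 2.48 (SE 0.061), and neurospheres lay a further 0.71 (SE 0.060), or 1.63-fold, above cultured cells. Cebpd was at 8.05, 8.11 and 8.22 in tissue, 11.12, 11.05 and 11.09 in the cultured cells and 11.25, 11.30 and 11.68 in neurospheres. It was higher by 2.96 (SE 0.053) in cultured cells than in tissue, and the 0.32 (SE 0.14) between cultured cells and neurospheres was 1.25-fold, with nearest arrays 0.13 apart. By these probe sets both factors had their larger step from tissue to cultured cells, while Saa3, Hp and Lcn2 had a further step of 2.89 to 3.51 in neurospheres. The dimmer Cebpd probe set, given below, did not share this. Whether these levels are linked was not tested, and the activity of the factors was not measured.

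Of the 7 genes, 5 had the order tissue, cultured cells, neurospheres from low to high. Serpina3n was lowest in cultured cells and Ptx3 highest there, so that each was the only gene of its order. The arrays of the 3 groups overlapped for none of the genes, but the smallest gaps, 0.071 for Serpina3n between cultured cells and tissue and 0.13 for Cebpd between neurospheres and cultured cells, were below the SDs of 0.25 in tissue and 0.24 in neurospheres for these genes. The smallest gap of any other pair of groups was 0.60, for Cebpb between neurospheres and cultured cells.

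**Figure D2:**
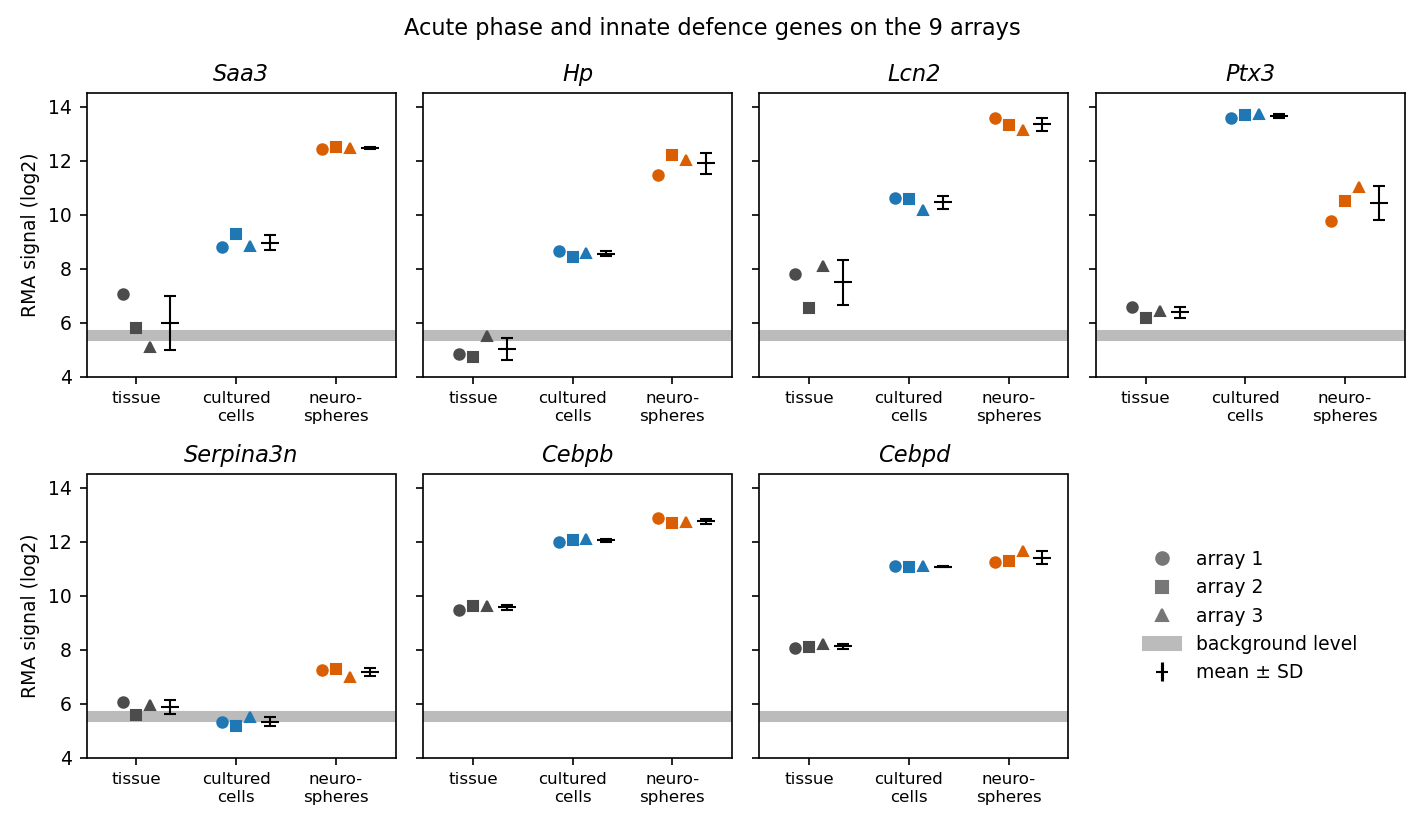
RMA signal of the 7 genes (log2, on the y axis) by group, 3 arrays each, with points for arrays, bars for the mean ± SD and a grey band for the range of the background level over the 9 arrays (5.35 to 5.69). Saa3, Hp and Lcn2 are higher in 2 steps from tissue through cultured cells to neurospheres, and Ptx3 is highest in cultured cells at 13.59 to 13.75. By the brightest probe sets, which are drawn, Cebpb and Cebpd differ mostly between tissue and cultured cells.

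Ptx3, Cebpb and Cebpd each had another probe set, which allowed a check of the pattern. The other Ptx3 probe set was far dimmer, at 5.92, 5.68 and 5.98 in tissue, 6.73, 6.97 and 7.14 in the cultured cells and 5.22, 5.25 and 4.93 in neurospheres. It too was highest in cultured cells, but only 1.09 (SE 0.15) above tissue, in place of 7.28 (SE 0.13). Neurospheres lay under the background level, at least 1.32-fold below tissue, where the brighter probe set had them 16.7-fold above it. The order of tissue and neurospheres for Ptx3 therefore depended on the probe set, and the cause was not tested. The other Cebpb probe set was at 5.85 to 6.46 in tissue, 10.03 to 10.18 in cultured cells and 10.83 to 11.21 in neurospheres. It kept the order of the first with larger differences, 4.80 (SE 0.21) between neurospheres and tissue in place of 3.19 (SE 0.077). The other Cebpd probe set stayed within 5.43 to 6.09 on the 9 arrays, near the background level, with the same order and a difference of 0.52 (SE 0.071) between neurospheres and tissue in place of 3.28 (SE 0.15). Its steps were 0.20 (SE 0.063) from tissue to cultured cells and 0.32 (SE 0.070) on to neurospheres, so the larger was not that from tissue.

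**Figure D3:**
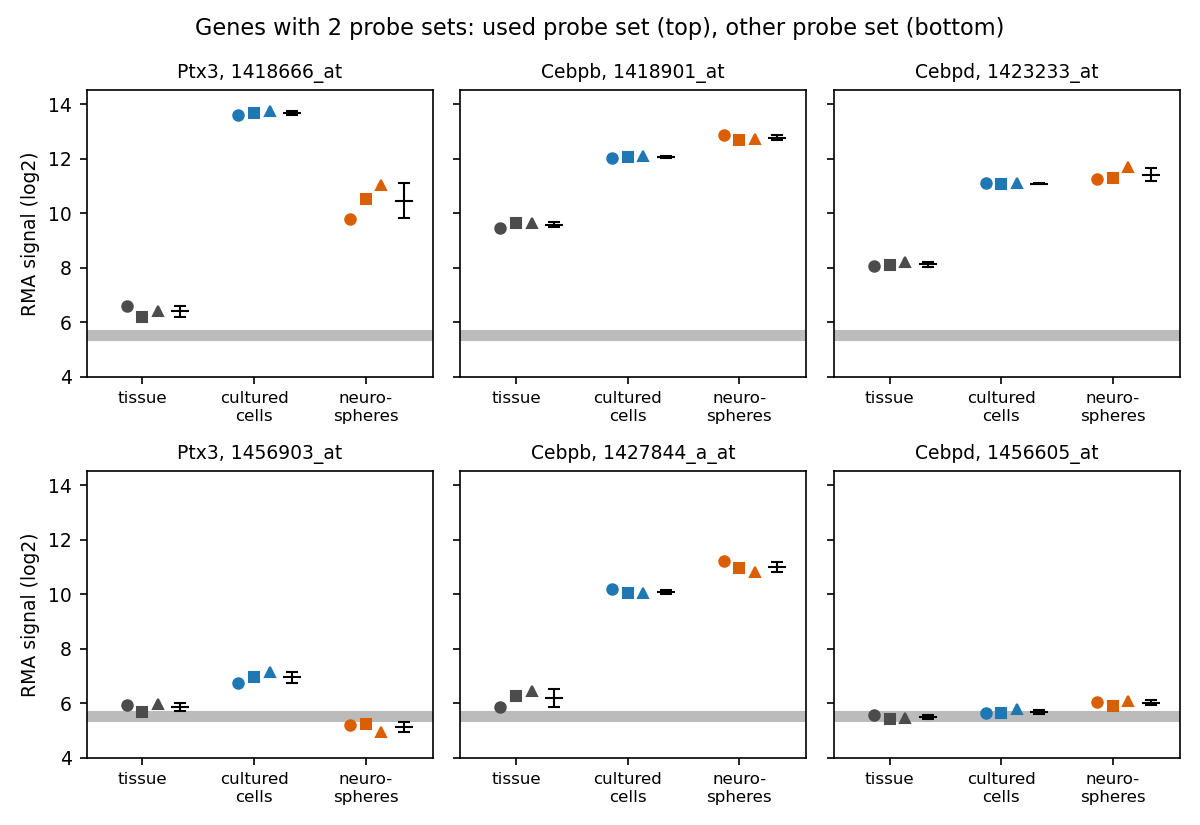
RMA signal (log2, on the y axis) by group, 3 arrays each, for the 2 probe sets of Ptx3, Cebpb and Cebpd, the brighter one above and the other below, with points for arrays, bars for the mean ± SD and the grey band for the background level. The 2 Cebpb probe sets share their order, whereas for Ptx3 neurospheres lie above tissue with one probe set and below it with the other.

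The tissue arrays disagreed for Saa3, Lcn2 and Hp more than for nearly all other genes. The SD of Saa3 between them was larger than that of 99.96% of genes, that of Lcn2 larger than 99.92% and that of Hp larger than 98.88%, where the median SD was 0.11. The disagreement did not follow 1 array. Saa3 was highest on array 1 and lowest on array 3, a 3.90-fold span, while Lcn2 and Hp were highest on array 3 and lowest on array 2. The tissue SDs of Cebpb (0.096) and Cebpd (0.086) were under the median of all genes. In neurospheres the genes with the widest spread were Ptx3 (SD 0.63, above 98.9% of genes) and Hp (SD 0.40, above 96.1%), both lowest on array 1, where Lcn2 and Cebpb were highest. In cultured cells the SDs were 0.031 (Cebpd) to 0.27 (Saa3).

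Neutrophils, which store lipocalin 2 and pentraxin 3 in granules, are found in the bone marrow around the cochlea, so their markers are given beside these values. S100a8, a subunit of calprotectin, was at 9.55, 9.40 and 11.12 on tissue arrays 1 to 3, and S100a9, its partner, at 8.22, 8.26 and 10.26. Both were highest on array 3, as were Lcn2 and Hp, whereas Saa3 was lowest there. The summed signal of the 9 neutrophil and marrow markers measured was 10.41 to 12.05 (log2) in tissue, 8.02 to 8.28 in cultured cells and 10.21 to 11.34 in neurospheres. In neurospheres S100a9, Ngp, Mpo, Elane, Cxcr2 and Hba-a1 were under the background level on every array, 6 of the 9, while Camp was at 9.62 to 10.99 and S100a8 at 7.75 to 8.66. Where Lcn2 was highest, S100a9 and Ngp were thus at background, while S100a8 and Camp were higher than in cultured cells.

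Markers of other cell types are given likewise. The 13 macrophage markers summed to 12.25 to 12.54 in tissue and to 9.18 to 9.94 in both cultures. Of the 7 hepatocyte markers measured, Alb, Ahsg, Apob and Tat were under the background level in every group, while the summed signal was 8.86 to 9.08 in tissue and 8.15 to 8.52 in the cultures. Ttr, at 8.30 ± 0.17 in tissue and 5.99 ± 0.042 and 6.13 ± 0.10 in the cultures, carried the higher sum in tissue. Apoa2, at 5.55 ± 0.036 in tissue, was higher by 0.65 in cultured cells and by a further 0.78 in neurospheres, and passed in all 3 comparisons in the order of Hp. The 11 fibroblast markers summed to 14.86 to 15.00 in tissue, 15.51 to 15.74 in cultured cells and 16.02 to 16.09 in neurospheres. Of the 11, 9 rose and 1 fell in neurospheres against tissue and 6 rose and 2 fell in cultured cells against tissue, while 4 rose and 2 fell in neurospheres against cultured cells (median -0.023). Thy1 fell in all 3 comparisons, Dcn fell in cultured cells against tissue, and Col1a1 fell by 3.69 in neurospheres against cultured cells, so the order of the sums was not that of each gene. The 6 astrocyte markers summed to 13.12 to 13.36, 11.83 to 12.43 and 12.67 to 12.80, with Aqp4 under the background level in both cultures. The sums were carried by Gja1, which did not pass in any comparison, while 4 of the 6 fell in neurospheres and 5 in cultured cells against tissue. The tissue carried markers of nerve, with the 8 neuron markers summing to 15.84 to 16.00 in tissue and 9.72 to 10.36 in the cultures and the 7 Schwann and myelin markers to 15.52 to 15.57 and 11.51 to 11.94. The 7 endothelial markers summed to 11.57 to 11.68 in tissue and 11.89 to 12.48 in the cultures, carried by Emcn, while 5 of the 7 fell in neurospheres and 4 in cultured cells against tissue, with Cldn5 and Vwf among them. The part of these cell types in the levels of the 7 genes was not tested, and more cells of a type cannot be told apart from more RNA per cell.

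**Figure D4:**
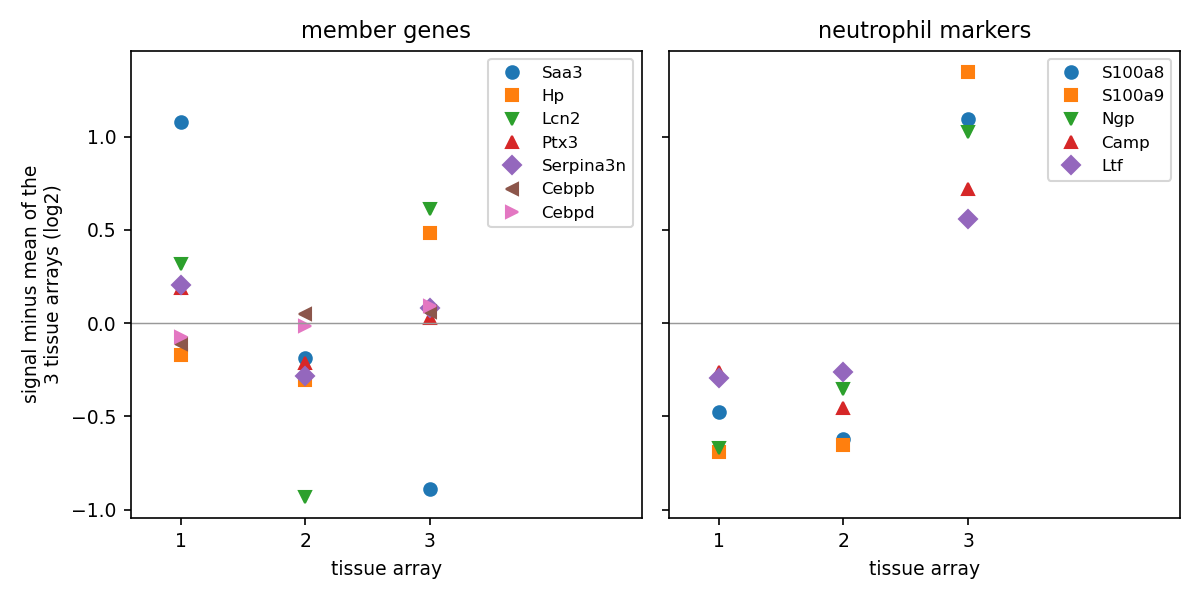
Signal on each of the 3 tissue arrays minus the mean of the 3 (y axis, log2) for the 7 genes (left) and for 5 neutrophil markers (right). The 5 are those of the 9 neutrophil and marrow markers that were above the background level on every tissue array. All 5 markers are highest on array 3, where Lcn2 and Hp are also highest and Saa3 is lowest. Of the markers not drawn, Elane and Hba-a1 are highest on array 1, under the background level.

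RNA integrity also differed between the groups. The signal at the 3' end of the actin transcript minus that at its 5' end (log2, mean ± SD of 3 arrays) was 2.71 ± 0.35 for tissue, 0.36 ± 0.037 for cultured cells and 0.70 ± 0.15 for neurospheres. For Gapdh it was 1.98 ± 0.46, 0.19 ± 0.037 and 0.41 ± 0.12. It was largest in tissue, where 6 of the 7 genes were at their lowest, and its part in their levels was not tested.

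The genes whose 9 array values most resembled each member were found by the root mean square difference after centring, in log2 units. Hp and Saa3 were both closest to Cxcl5, a neutrophil-attracting chemokine, at 0.40 and 0.52, and Sdc1, the proteoglycan syndecan 1, was among the nearest 3 of both. Lcn2 was closest to Tnfaip2 (0.42) and Cdkn2b (0.46), and was itself the third nearest to Hp (0.59). Ptx3 was closest to Sfrp2, a secreted Wnt modulator, at 0.41, and next to C4bp (0.54), a complement regulator. Cebpb was closest to P3h3 (0.10), a collagen-modifying enzyme, and next to Nfkbiz (0.11), a nuclear regulator of NF-kB target genes. Cebpd was closest to C1qtnf6 (0.17), and Serpina3n to Sox5 (0.16).

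Over all genes, 21.7% rose and 21.0% fell in neurospheres against tissue, and 20.4% and 22.0% in cultured cells against tissue. In neurospheres against cultured cells 9.0% rose and 8.91% fell, and the count of any list can be set beside these shares. Of 23 other acute phase genes measured, 11 rose and 2 fell in neurospheres against tissue (median 0.38), 3 rose and 5 fell in cultured cells against tissue (median -0.058), and 11 rose and 1 fell in neurospheres against cultured cells (median 0.44). Cd14, the lipopolysaccharide co-receptor, was at 7.21 ± 0.12 in tissue, 8.35 ± 0.042 in the cultured cells and 10.51 ± 0.54 in neurospheres (SD, n = 3). Saa1, a liver relative of Saa3, was under the background level in tissue and cultured cells. It was at 5.09 to 6.45 in neurospheres, where only 1 of the 3 arrays was above that level. Its neurosphere mean was at least 1.13-fold above tissue (limma, adjusted p = 0.00182), a bound that rests on this 1 array. Saa2, another relative, and Fgb, a fibrinogen chain, were under the background level in every group, although both count among the 11 that rose in each of the neurosphere comparisons. Orm1, which encodes the plasma protein orosomucoid 1, was under the background level in every group as well. A2m, the protease inhibitor alpha 2 macroglobulin, went against Saa3 and Hp, at 11.26 ± 0.033 in tissue and 5.59 ± 0.19 in neurospheres, a log2 difference of -5.67 (limma, adjusted p = 1.92e-09). It was also the 1 gene that fell from cultured cells to neurospheres, by 0.75 on the log2 scale (limma, adjusted p = 0.0333), a call lost when cultured cell array 2 or 3 or neurosphere array 1 or 2 was left out (adjusted p = 0.057 to 0.0952). The 2 relatives of Serpina3n with a probe set, of 10 listed in its gene cluster, did not pass in any comparison.

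Of the C/EBP family and partners, to which Cebpb and Cebpd belong, 3 of the 7 others measured rose in neurospheres against tissue, 4 in cultured cells against tissue, and 2 fell in neurospheres against cultured cells. Cebpa, the relative that drives adipocyte and myeloid genes, was at 6.87 ± 0.16 in tissue, 9.91 ± 0.19 in the cultured cells and 8.76 ± 0.47 in neurospheres. It was highest in cultured cells, as Ptx3 was, and its fall to neurospheres of 1.14 on the log2 scale passed (limma, adjusted p = 0.00393). Cebpg, at 9.18 ± 0.083 in tissue and 8.60 ± 0.29 in neurospheres, did not pass at a difference of -0.58 (limma, adjusted p = 0.00645, under 1.5-fold), and passed at -0.74 without neurosphere array 3, -0.62 without tissue array 1 and -0.59 without tissue array 3. Another Cebpg probe set went the other way, at 0.65 (limma, adjusted p = 0.00232), so no direction is given for this gene.

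Cytokines, receptors, signalling factors and their inhibitors, in pathways that act upstream of Saa3, Hp and Lcn2, were counted in 2 lists. Of 16 genes of the interleukin 6 family and STAT3, 11 rose and 3 fell in neurospheres against tissue (median 1.15), 8 rose and 2 fell in cultured cells against tissue (median 0.76), and 6 rose and 1 fell in neurospheres against cultured cells (median 0.58). Il6 was under the background level in tissue, at 7.79 to 8.05 in the cultured cells and at 11.65, 8.77 and 9.06 in neurospheres, at least 21.0-fold above tissue (limma, adjusted p = 2.37e-05). Neurosphere array 1 had the highest Il6, and the lowest Hp and Ptx3 of the 3. The Il6 difference of 1.89 between neurospheres and cultured cells did not pass (limma, adjusted p = 0.0547), and without neurosphere array 1 it was 0.97 and passed (adjusted p = 0.000557), as it did without neurosphere array 2, at 2.42 (adjusted p = 0.0232). Stat3 rose by 2.35 in neurospheres and 1.76 in cultured cells, and Socs3, its feedback inhibitor, by 3.44 and 1.60.

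Of 26 genes of interleukin 1, tumour necrosis factor, Toll-like receptor and NF-kB signalling, 17 rose and none fell in each culture against tissue (medians 1.62 in neurospheres and 0.80 in cultured cells), and 12 rose and 1 fell in neurospheres against cultured cells (median 0.56). The list also holds inhibitors of these signals, such as Irak3, which rose by 3.90 in neurospheres against tissue. Whether signalling through these pathways differed was not tested. Il33, a cytokine released from damaged stromal cells, was at 8.42 ± 0.12 in tissue, 9.15 ± 0.32 in the cultured cells and 13.70 ± 0.19 in neurospheres. Nfkbiz, whose pattern was close to that of Cebpb, was at 8.42 ± 0.098, 10.95 ± 0.19 and 11.59 ± 0.029. Il1b and Tnf, classical inducers of Saa3 and Ptx3, stayed near the background level at group means of 4.98 to 5.35 and did not pass in any comparison.

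Of 20 receptors and binding partners of the secreted members, 5 rose and 6 fell in neurospheres against tissue, beside 21.7% and 21.0% of all genes. In cultured cells against tissue 4 rose and 5 fell. In neurospheres against cultured cells 4 rose and 4 fell, beside 9.0% and 8.91% of all genes. Mmp9, the protease that binds lipocalin 2, was at 4.76 to 5.57 in tissue and cultured cells and at 10.34 ± 0.57 in neurospheres, where Lcn2 was also highest. It rose by 5.25 (SE 0.29) against tissue (limma, adjusted p = 5.52e-07), where 1 of the 3 arrays was above the background level, so the size of this rise is uncertain. Slc22a17, the lipocalin 2 receptor, fell by 2.04 in neurospheres and fell by 2.25 in cultured cells against tissue. Lrp2, the endocytic receptor megalin, was under the background level in neurospheres, at least 18.0-fold below tissue (limma, adjusted p = 1.46e-07), and fell by 3.18 in cultured cells against tissue. Cd163, the receptor for haptoglobin bound to haemoglobin, was under the background level in every group, although it counts among the genes that fell in both cultures against tissue and that rose between them. Selp, the P-selectin that pentraxin 3 binds, was at 6.16 ± 0.064 in tissue, 5.97 ± 0.15 in the cultured cells and 9.51 ± 0.72 in neurospheres.

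Among 29 other complement genes, 6 rose and 10 fell in neurospheres against tissue (median 0.020), 6 rose and 10 fell in cultured cells against tissue (median -0.17), and 4 rose and 5 fell in neurospheres against cultured cells (median 0.055). Against tissue, the share that rose was close to that of all genes, 21.7% in neurospheres and 20.4% in cultured cells. The share that fell was larger than that of all genes, 21.0% in neurospheres and 22.0% in cultured cells. C1s1, a protease of the classical pathway, rose by 4.68 in neurospheres and 3.06 in cultured cells, and Cfb, factor B of the alternative pathway, by 2.36 and 1.45. C4bp followed Ptx3, under the background level in tissue, at 10.45 ± 0.089 in the cultured cells and at 7.77 ± 0.22 in neurospheres. C1qa and C1qb, C1q subunits made by macrophages and bound by pentraxin 3, fell from 8.50 ± 0.55 and 9.74 ± 0.40 in tissue to 4.90 ± 0.56 and 5.60 ± 0.60 in neurospheres. There each was above the background level on 1 of the 3 arrays. Both are themselves among the macrophage markers whose sum was also lower in neurospheres, so that sum is no separate observation. Mbl2, counted among those that fell against tissue, was under the background level in every group.

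Of 20 antimicrobial and innate effector genes, 7 rose and 7 fell in neurospheres against tissue (median -0.10), 4 rose and 11 fell in cultured cells against tissue (median -0.65), and 10 rose and 1 fell in neurospheres against cultured cells (median 0.47). Camp, which encodes the peptide cathelicidin and is stored beside lipocalin 2 in neutrophil granules, was at 7.19 ± 0.63 in tissue, 6.47 ± 0.21 in the cultured cells and 10.16 ± 0.73 in neurospheres. Its rise of 2.97 in neurospheres against tissue passed (limma, adjusted p = 0.000167), while Ltf, stored in the same granules, fell. Pglyrp1, counted among the 11 that fell in cultured cells against tissue, was under the background level in every group. Ptgs2, the inducible cyclooxygenase, shared the step order of Cebpb at 6.43 ± 0.14, 11.04 ± 0.34 and 12.21 ± 0.34.

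**Figure D5:**
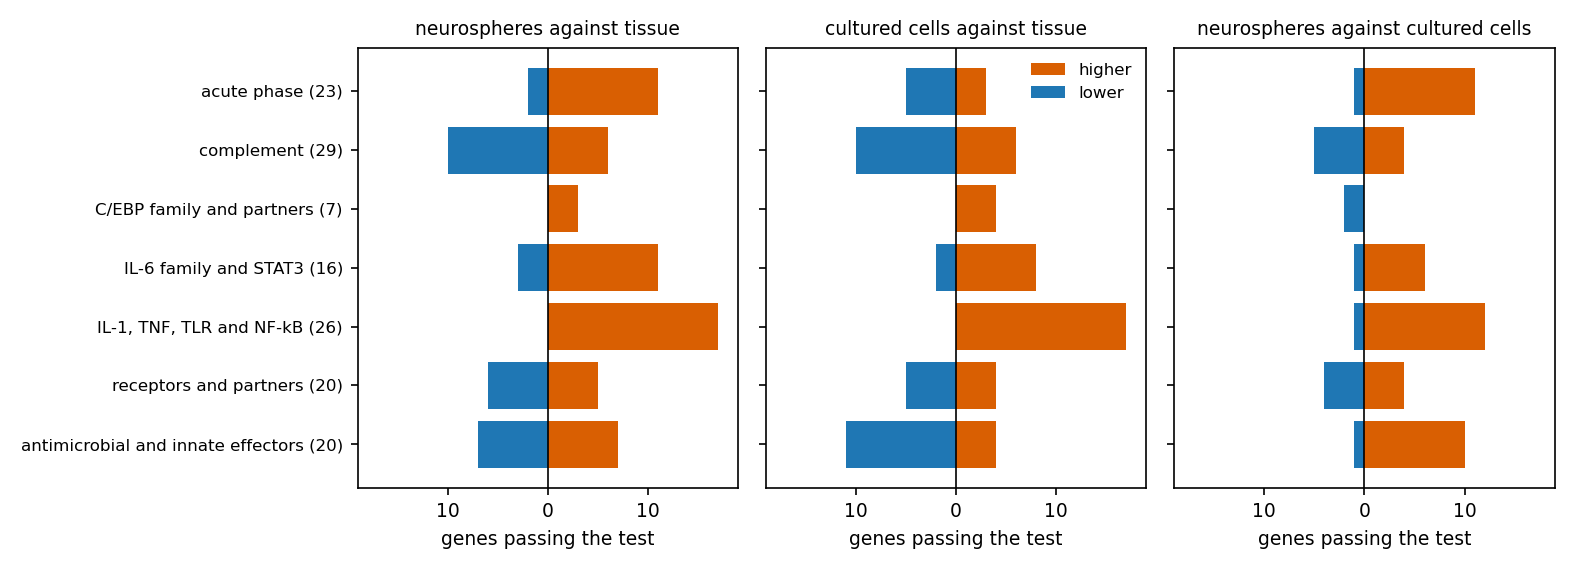
Numbers of genes (x axis) that passed the test as higher (right of 0) or lower (left of 0) in 7 lists of genes related to the members, 1 panel per comparison, with the number of genes measured in parentheses. The list of interleukin 1, tumour necrosis factor, Toll-like receptor and NF-kB genes has 17 higher and none lower in each culture against tissue, while complement genes split both ways.

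Reactive astrocyte panels were set beside Lcn2 and Serpina3n, which such panels often include. Of the 11 genes shared by reactive states, 9 rose and 1 fell in neurospheres against tissue, 7 rose and 2 fell in cultured cells against tissue, and 4 rose in neurospheres against cultured cells. Timp1, a metalloproteinase inhibitor, rose by 6.36 in neurospheres and 5.26 in cultured cells. Gfap, the astrocyte filament, fell by 1.72 in neurospheres and fell by 2.01 in cultured cells, so that it went against Lcn2 and, in neurospheres, against Serpina3n. Of 9 genes of the panel after lipopolysaccharide, 4 rose and 3 fell in neurospheres against tissue, and of 11 genes of the panel after ischaemia, 8 rose and none fell. In cultured cells against tissue the counts were 4 and 1, and 8 and 1, and in neurospheres against cultured cells 1 and 2, and 5 and 2.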

How the data were processed

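Total RNA from 3 samples each of auditory nerve tissue, cultured auditory nerve cells and neurospheres had been hybridised to 3' expression arrays. The authors deposited log2 signals. The tools named in their processing notes are RMA, Affymetrix Expression Console and MAS5, with no versions. RMA sets all arrays to 1 distribution, so a shift of most genes in 1 direction would not be seen, and it compresses differences near the background. Precision is limited by the number of arrays.

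Of 45101 probe sets, 64 were controls, 34945 named 1 gene, 932 several and 9160 none. Symbols were brought up to date through a gene table, and 162 were kept as given. Each of 18193 genes was represented by the probe set of its own that was brightest on average, a choice that mattered for the 9010 genes with several. Members are given with every probe set that names them alone. The test was limma's moderated test (lmFit, eBayes, 2-sided; limma 3.58.1, R 4.3.3) on the 6 arrays of a comparison. To pass, a gene needed a fold over 1.5 and a p under 0.05 after Benjamini-Hochberg adjustment over all genes tested. A gene under the background level on every array of a group is given as a bound, against the background level in that group. The procedure was tested on simulated data.

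The members, the 19 gene lists (242 of 266 entries measured) and the tests were chosen with earlier results of these data known, and no list holds a member. Named genes were the members, a fixed set (such as Il6, Il1b, Tnf, Stat3, Cebpa, Saa1 and Cd163), up to 3 genes of each list with the largest rise and fall in a comparison, the 3 genes most like each member, and marker genes. Genes named beside these, such as Ltf and Elane, were named after their values were seen. Alternatives were 3 other scalings, other uses of probe sets, a filter on low genes, 1 fit to all arrays, another prior, no or a higher fold threshold, the methods' t-test, leaving out each array, and a block for the replicate number.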

Additional observations from a re-analysis of the deposited data

How the results depend on the processing

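Among the members, no alternative over 1 value per gene turned the sign of a difference, while the dimmer Ptx3 probe set taken alone put neurospheres under the background level, at least 1.32-fold below tissue. Leaving out each array kept the counts of genes higher by over 1.5-fold at 7, 6 and 5 in the 3 comparisons (neurospheres against tissue, cultured cells against tissue, neurospheres against cultured cells). Overlap between arrays was not part of these counts. The difference of Saa3 between neurospheres and tissue ranged from 6.05 to 7.03 over the alternatives, and that of Serpina3n between cultured cells and tissue from -0.68 to -0.33, on both sides of 1.5-fold. The mean of the probe sets moved Ptx3 to 1.67, 4.18 and -2.52, Cebpb to 3.99, 3.19 and 0.81, and Cebpd to 1.90 and 1.58 against tissue. Centring on hybridisation controls shifted the median of all genes to 0.20 in cultured cells against tissue and to -0.094 in neurospheres against cultured cells, and put Ptx3, Cebpb and Cebpd at 7.49, 2.69 and 3.16 in the former and Cebpb at 0.56, under 1.5-fold, in the latter.

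With every probe set, 15068, 15286 and 6127 passed in the 3 comparisons, and with a fold over 2, 4961, 4901 and 1618. With no fold threshold, 11641 passed in cultured cells against tissue and 6367 in neurospheres against cultured cells. List genes that passed in neurospheres against cultured cells numbered 42 with a fold over 2. These counts follow from the number of features and the threshold. Leaving out each array gave 7647 to 7808, 7721 to 7776 and 3161 to 3369 genes, and 103 to 106, 90 to 96 and 64 to 75 list genes. With the mean of the probe sets, Slc1a3 turned to 0.37 (limma, adjusted p = 0.0296) in neurospheres against tissue and Syt1 to 0.13 (adjusted p = 0.337) in cultured cells against tissue, and the cause was not tested. Of the tests of single list and marker genes under alternatives, 6882 kept their side of the threshold, 68 passed only under the alternative and 182 no longer passed. A further 2 turned, where a change of sign in a gene that passed in neither fit was not counted as a turn.

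Samples that share a replicate number did not deviate together in every comparison (correlations from -0.19 to 0.21, some below 0 in 2 comparisons). In cultured cells against tissue all correlations were above 0 but low, at 0.069 to 0.21. The numbers were not taken as pairs. With the replicate number as a block, 3955 genes rose and 3822 fell in neurospheres against tissue, 3713 and 4014 in cultured cells against tissue, and 1640 and 1613 in neurospheres against cultured cells.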
